A study of Mus musculus with 12 samples.

Results

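The wide H3K27me3 domains of mouse intestinal villi are described here. A domain is a called H3K27me3 peak of villi that spans 10 kb or more, and 393 of the 13797 villi peaks, or 2.85%, met this width. With villi peaks under 1 kb apart merged, 689 would. They came from ChIP-Rx, a form of ChIP-seq in which Drosophila S2 chromatin is spiked in as a reference, in a study of histone H3 tail proteolysis. The groups were small-intestinal villi, scraped from the tissue, and crypts, released afterwards with EDTA, each immunoprecipitated for H3K27me3, H3K4me1, H3K4me3, H3K9me2 and H3K9me3. Each compartment and modification has 1 library, so no difference between crypts and villi has a replicate check and none was tested. No genotype, strain, age or number of animals was taken from the sources used here, and scraped villi and released crypts are tissue fractions that can hold cells other than epithelium. Width chose the domains, so their width and score are given as a description. All coordinates are on mm10 (GRCm38) and counted from 1.

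H3K27me3 is deposited by Polycomb repressive complex 2 and marks genes that are kept silent. In vertebrate genomes it collects at CpG islands, stretches rich in the CG dinucleotide, and it spreads furthest over genes that set cell identity in the embryo, of which the Hox clusters are the textbook case. H3K4me3 marks active or poised promoters and H3K4me1 marks enhancers and the edges of promoters. A region with both H3K27me3 and H3K4me3 is called bivalent. In a tissue, the same bases can carry both peaks because 1 nucleosome has both marks or because different cells have each, and peak lists cannot tell these apart.

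Lists of 10 libraries were used, and the 2 inputs were not used here. They held from 2089 to 55341 peaks apart from H3K9me2, which had 3 in villi and 6 in crypts. The lists give no read counts, so depth is unknown, and the villi H3K27me3 list is longer than that of crypts, 13797 against 7611 peaks. Cell type markers were looked up at promoters, within 1 kb of a start site. All 5 epithelial markers and all 5 villi markers had an H3K4me3 peak in both compartments. Of the 5 crypts markers, 3 had one in villi and 4 in crypts. The epithelial, villi and crypts markers thus do not tell the compartments apart and are no check of the labels. The 3 lymphocyte markers Ptprc, Cd3e and Cd8a had one in villi and none had one in crypts. Mesenchyme markers had one for 3 of 4 in villi and 2 of 4 in crypts, nerve markers for 1 of 2 in each, and the endothelial markers Pecam1 and Cdh5 for none. Of all these markers, 1 started in a domain, the mesenchymal receptor gene Pdgfra.

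The sequences below come from RefSeq on GRCm38.p6 and show what kind of DNA and which small RNAs lay inside the domains. The first set is mature miRNAs of the 2 miRNA families whose members in these domains lay at several separate loci. They were chosen after their positions were seen, and the seed, bases 2 to 8, is in capitals.
mmu-miR-9-5p: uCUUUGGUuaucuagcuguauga
mmu-miR-196a-5p: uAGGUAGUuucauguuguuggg
mmu-miR-196b-5p: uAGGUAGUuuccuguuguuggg
The second set is 4 promoters, each from 250 bases before to 50 bases after the start, with every CG in capitals. They show the span from CG-dense to CG-poor promoters and the different H3K4me3 states found inside the domains.
Barhl2, chr5:106458117-106458416, minus strand, with no H3K4me3 peak over it in either compartment: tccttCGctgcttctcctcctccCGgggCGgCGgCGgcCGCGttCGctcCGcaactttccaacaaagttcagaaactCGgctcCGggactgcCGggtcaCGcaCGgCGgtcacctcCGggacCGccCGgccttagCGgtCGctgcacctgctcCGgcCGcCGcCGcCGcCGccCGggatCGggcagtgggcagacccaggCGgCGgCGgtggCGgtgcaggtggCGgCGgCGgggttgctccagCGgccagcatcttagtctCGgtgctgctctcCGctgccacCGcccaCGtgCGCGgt
Sox2, chr3:34649745-34650044, plus strand, under an H3K4me3 peak in villi and none in crypts: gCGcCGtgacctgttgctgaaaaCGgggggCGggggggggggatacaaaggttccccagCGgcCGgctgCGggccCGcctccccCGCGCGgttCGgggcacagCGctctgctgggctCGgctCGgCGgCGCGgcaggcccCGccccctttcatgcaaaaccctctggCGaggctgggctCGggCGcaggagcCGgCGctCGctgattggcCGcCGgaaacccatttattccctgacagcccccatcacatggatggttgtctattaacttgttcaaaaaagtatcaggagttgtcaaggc
Pdx1, chr5:147269847-147270146, plus strand, under an H3K4me3 peak in both compartments: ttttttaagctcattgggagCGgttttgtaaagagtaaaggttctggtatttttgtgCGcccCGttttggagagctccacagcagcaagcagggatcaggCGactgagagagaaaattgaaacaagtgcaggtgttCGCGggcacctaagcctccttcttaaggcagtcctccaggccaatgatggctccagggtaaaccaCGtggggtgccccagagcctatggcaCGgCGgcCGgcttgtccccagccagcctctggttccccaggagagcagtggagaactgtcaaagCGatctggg
Krt90, chr15:101562901-101563200, minus strand, with no H3K4me3 peak over it in either compartment: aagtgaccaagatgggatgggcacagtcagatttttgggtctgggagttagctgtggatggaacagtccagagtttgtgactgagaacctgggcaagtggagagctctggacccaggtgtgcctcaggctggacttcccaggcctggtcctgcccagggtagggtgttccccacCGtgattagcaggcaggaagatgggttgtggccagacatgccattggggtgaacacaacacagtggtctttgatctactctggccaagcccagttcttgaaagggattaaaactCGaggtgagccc
These windows held 42 CG dinucleotides for Barhl2, 27 for Sox2, 11 for Pdx1 and 2 for Krt90. CG reads the same on both strands, and 94.6% of all 32851 RefSeq promoters of this length held at least 1, with a median of 7. Of the 306 protein-coding genes that start in a domain, 212 were matched to 246 such promoters lying in a domain, of which 99.6% held a CG and the median was 19, with quartiles of 11 and 27. The median was 24 for the 58 promoters under a villi H3K4me3 peak and 16.5 for the 188 without one.

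The domains covered 6.12 Mb, which is 17.2% of the bases under villi H3K27me3 peaks. Their median width was 13439 bp, with quartiles of 11295 and 17251 bp, against 1610 bp for all villi H3K27me3 peaks. Widths of 15 kb or more were reached by 142 domains, 20 kb by 62 and 30 kb by 14. The peak score, taken as −log10 of the p-value, ranged from 14.1 to 69.8, and 392 of the 393 domains lay in the upper 50% of the list. Domains were found on each of the 19 autosomes, from 51 on chromosome 2 to 3 on chromosome 16. None lay on the X chromosome, where the villi list held 77 H3K27me3 peaks, the widest of 6772 bp. The width limit cut through a continuous range. Just inside it were a 10002 bp domain at Celsr3, a seven-pass cadherin gene, a 10015 bp domain at chr2:33641111-33651125 and a 10017 bp domain at chr3:128985773-128995789. Just outside it were peaks of 9993 bp at Dlgap2, 9992 bp at Nt5c2 and Ina and 9980 bp at Cyp1b1.

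The 10 widest domains lay over developmental transcription factor genes. The widest spanned 110743 bp at chr15:102921373-103032115 and held the start sites of 8 Hoxc genes, from Hoxc12 to Hoxc4. The next was 53982 bp wide at chr6:52201185-52255166 and held Hoxa3, Hoxa5, Hoxa6, Hoxa7, Hoxa9, Hoxa10 and Hoxa11. A domain of 40793 bp at chr2:74653634-74694426 held Evx2 and Hoxd10 to Hoxd13, and another of 35724 bp at chr11:96247950-96283673 held Hoxb8 and Hoxb9. Hox genes encode the factors that set position along the body axis. The others were those of Tbx15, a T-box gene of limb and skeletal mesenchyme (36660 bp, chr3:99233154-99269813), and Nkx2-3, a homeobox gene of gut mesenchyme (36520 bp, chr19:43591679-43628198). A domain of 34277 bp at chr8:57321927-57356203 held no coding start site, but overlapped the body of Hand2 and began 944 bp from its start site. Hand2 is a basic helix-loop-helix (bHLH) factor gene of heart and gut mesenchyme. The neural homeobox gene Barhl2 lay in a domain of 32477 bp (chr5:106446320-106478796). Dlx5 and Dlx6, homeobox genes of bone and forebrain, shared 31434 bp (chr6:6854065-6885498). The tenth was the 30875 bp domain of the orphan nuclear receptor gene Nr2f1 (chr13:78167486-78198360).

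Start sites of 306 protein-coding genes lay in 265 of the 393 domains, or 67.4% (95% Wilson interval 62.6 to 71.9%). Over all villi H3K27me3 peaks 19.3% held one, and the 306 genes are 1.40% of the 21866 coding genes annotated in GENCODE M21. A wide region meets more of anything, so densities are given beside shares. Coding genes started at 0.508 per 10 kb in domains, 0.792 in villi H3K27me3 peaks of 5 to under 10 kb and 0.778 over all of them, so per length the domains held fewer gene starts than narrower villi H3K27me3 peaks. A single coding gene started in 237 domains, 2 in 22 domains and 3 or more in 6. Most genes per domain were found at Hoxc, Hoxa and Hoxd, followed by 3 domains with 3 genes each, that of Mllt10 and Skida1, that of Hoxb5, Hoxb6 and Hoxb7 and that of Gata3. Of the 128 domains without a coding start, 56 overlapped the body of a coding gene, 62 lay within 10 kb of a start and 33 held the start of a noncoding gene.

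Transcription factor genes made up a large part of these 306 genes. Of the 307 genes in 8 lists of developmental factors, 134 started in a domain, or 43.6% (38.2 to 49.2%), and 219 in a villi H3K27me3 peak of any width. The same shares over all coding genes were 1.40% and 11.9%. Read from the other side, 134 of the 306 genes in domains were of these lists, or 43.8% (38.3 to 49.4%), against 85 of the 2300 genes that start in a narrower villi H3K27me3 peak alone, or 3.70% (3.00 to 4.55%). The share of domains with such a gene was higher among wider domains, at 32 of 62 of 20 kb or more and 50 of 251 of under 15 kb. Per 10 kb of domain the difference was smaller, at 0.186 and 0.165 domains with such a gene, while the genes themselves numbered 0.308 and 0.168 per 10 kb, with the Hox clusters among the wider ones.

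Hox genes had the highest share of the lists, with 30 of 39 in a domain. Of the other homeobox and paired-box genes 70 of 144 started in one, among them Evx2, Nkx2-3, Barhl2, Dlx5 and Dlx6. Sox genes had 8 of 20, among them the pluripotency and neural factor Sox2 (29391 bp) and the neural factor Sox21 (18694 bp). T-box genes had 6 of 17, the widest being Tbx15, Tbx20 of the heart (15259 bp) and Tbx4 of the hindlimb (14707 bp). Forkhead genes had 9 of 44, with the thyroid factor Foxe1 (20932 bp) and the neural factor Foxb1 (19296 bp) in the widest domains. Both Gata2 (18650 bp) and Gata3 (13614 bp), factors of blood and lymphoid cells, lay in domains, out of 6 GATA genes. Neurogenic bHLH genes had 6 of 20, led by Neurod2 (24196 bp), Olig2 (19376 bp) and Neurog1 (16904 bp). Mesodermal bHLH genes had 3 of 17, which were Tal1 of blood and endothelium (20097 bp), Tcf21 of visceral mesenchyme (12373 bp) and Hand2 itself (11548 bp).

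The signalling lists are read against all coding genes, of which 11.9% started in a villi H3K27me3 peak and 1.40% in a domain. At the latter share a list of this size would hold no gene or 1, so a count of 0 or 1 in a domain is no result. Of 19 Wnt ligand genes 14 started in a villi H3K27me3 peak and 3 in a domain, Wnt10a (15379 bp), Wnt11 (14552 bp) and Wnt5a (14330 bp). Hedgehog pathway genes were in a peak for 9 of 14 and in a domain for 0 of 14, which allows a share of up to 21.5% (Wilson). FGF ligands gave 11 and 0 of 22, and Frizzled receptors and secreted Wnt antagonists 10 and 0 of 26. Among 35 BMP, GDF and antagonist genes 15 had a peak and 1 a domain, Gdf7 (11914 bp). In the Notch pathway 6 of 21 had a peak and 2 a domain, the ligand gene Dll3 (16075 bp) and the target gene Hey2 (10120 bp). The neuronal transporter genes Slc32a1, for GABA, and Slc17a7, for glutamate, were the 2 of 18 neuronal solute carriers in a domain, and 11 were in a peak.

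Lists of the gut epithelium itself differed from one another. No enterocyte gene of 20 and no crypt or stem cell gene of 20 started in a domain, and in any villi H3K27me3 peak there were 0 and 4. A count of 0 of 20 is near the 1.40% of all coding genes that start in a domain and is no result about these genes. The intestinal identity list had 1 of 20, Pdx1 of the duodenum and pancreas (15703 bp, chr5:147264866-147280568). Factors of enteroendocrine and other secretory cells had 16 of 20 in a peak and 3 in a domain, Pax6 (22934 bp), Isl1 (14244 bp) and Fev (11454 bp). Genes of mesenchyme and muscle had 4 of 20, which were Nkx2-3, the forkhead genes Foxl1 (17704 bp, shared with Foxc2) and Foxf2 (14784 bp), and Pdgfra (13157 bp). Endothelial and blood factors had 7 of 18, with Tal1, Gata2, Runx3 (17348 bp), Sox17 (13621 bp), Gata3 and Sox18 (11565 bp) in the widest. The cell cycle inhibitor gene Cdkn2a, in a domain of 11153 bp, was the 1 of 7 of its list. None of 27 Polycomb complex genes and none of 56 clustered protocadherin genes started in a domain, which is likewise near the share over all coding genes. Several genes stand in more than 1 list, such as Gata2, Pax6, Pdx1 and Foxl1.

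**Figure D1:**
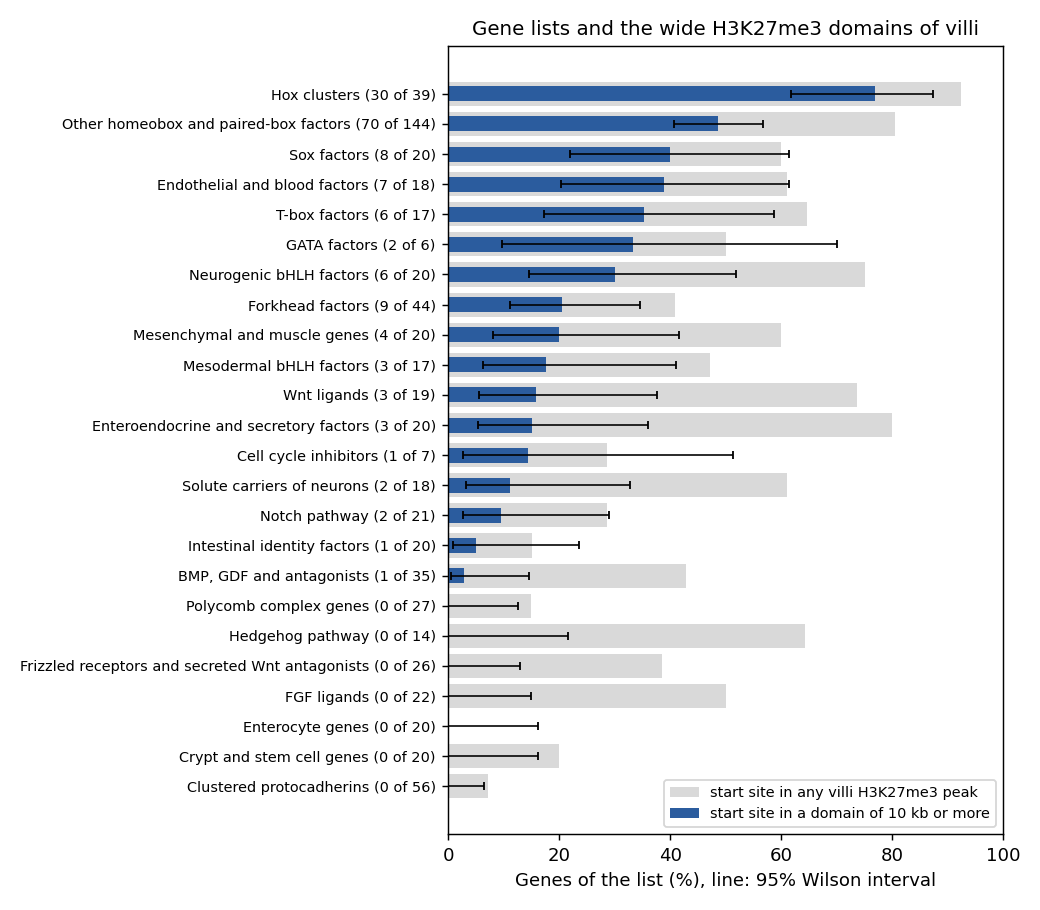
Share of the genes of each list (horizontal axis, percent) with a start site in a villi H3K27me3 peak of any width (grey) and in a domain of 10 kb or more (blue), with 95% Wilson intervals on the blue bars as black lines and counts beside the names. Hox genes reached 30 of 39 in domains, and the share over all coding genes was 1.40% in domains and 11.9% in peaks of any width.

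The domains also held miRNA genes. Of the 1005 hairpins that RefSeq lists, 16 lay in 12 domains, a share of 1.59%, near the 1.40% of coding genes, and 65 lay in a villi H3K27me3 peak of any width. The 16 are not all separate loci, since Gm25641, Gm51268 and Mir129b lie on the opposite strand of Mir9-1, Mir9-2 and Mir129-2. The neural miR-9 is made from 3 genes, and each lay in a domain of about the same width that held no coding start site. Mir9-1 (chr3:88191140-88221867) was in a domain of 30728 bp covered over 91.0% by crypts H3K27me3 peaks. Mir9-2 (chr13:83712493-83742789) was in one of 30297 bp covered over 96.2%, and Mir9-3 (chr7:79493887-79524105) in one of 30219 bp covered over 84.5%. These 3 loci give the same mature miR-9-5p, printed above with its seed CUUUGGU. H3K4me3 peaks covered 1772 bp of the Mir9-1 domain in villi and 1497 bp in crypts, and 1704 and 663 bp of the Mir9-2 domain, but none of the Mir9-3 domain in either. Each of the 3 miR-196 genes lay in a Hox domain, Mir196a-1 beside Hoxb9, Mir196a-2 in the Hoxc domain and Mir196b in the Hoxa domain. Their 5p forms share the seed AGGUAGU. Mir129-2 lay in a domain of 12544 bp without coding start, covered over 72.5% in crypts, with no H3K4me3 or H3K4me1 peak in either compartment.

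Nearly every domain was also marked in crypts. A crypts H3K27me3 peak met 392 of the 393 domains, against 44.4% of all villi H3K27me3 peaks. In the median 88.1% of a domain was covered by crypts peaks (interval of the median 85.7 to 89.6%), with quartiles of 73.4 and 96.3%. At least 50% of the length was covered in 363 domains, or 92.4% (89.3 to 94.6%), against 36.0% of all villi peaks. At least 90% was covered in 175, or 44.5% (39.7 to 49.5%), against 13.7%, and the whole length in 26. In the villi peaks of 5 to under 10 kb the median was 73.2% (70.8 to 75.1%) and 76.4% (73.9 to 78.7%) were covered over at least 50%. Peaks under 5 kb had a median of 0, and 30.1% were covered over at least 50%. Coverage was thus higher in wider peaks, and width chose the domains.

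The widest domains were among the well covered ones. Crypts peaks covered 98.7% of the Hoxc domain, 100% of the Hoxa domain, 98.2% of the Hoxd domain and 98.7% of the Hoxb8 and Hoxb9 domain. The share was 97.3% in the domain over the body of Hand2, 94.9% at Nr2f1, 94.1% at Nkx2-3, 93.7% at Barhl2, 91.7% at Dlx5 and Dlx6, and 86.0% at Tbx15. A single crypts peak met 176 domains, 2 met 131, 3 met 60, 4 met 15 and 5 or more met 10, with at most 7. The Hoxc domain was met by 4 crypts peaks, the widest of 72697 bp, and Hoxa by 1. Uncovered bases came to 1014 kb, of which 65.7% lay at the ends of domains and 33.3% between crypts peaks. In 126 domains the first crypts peak began before the domain, and in 128 the last one ended after it. The profile over 10 bins per domain gave a crypts coverage of 74.2% in the outer bins, 91.0% in the middle and 24.4% in the flanks of 1 domain width on each side.

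**Figure D2:**
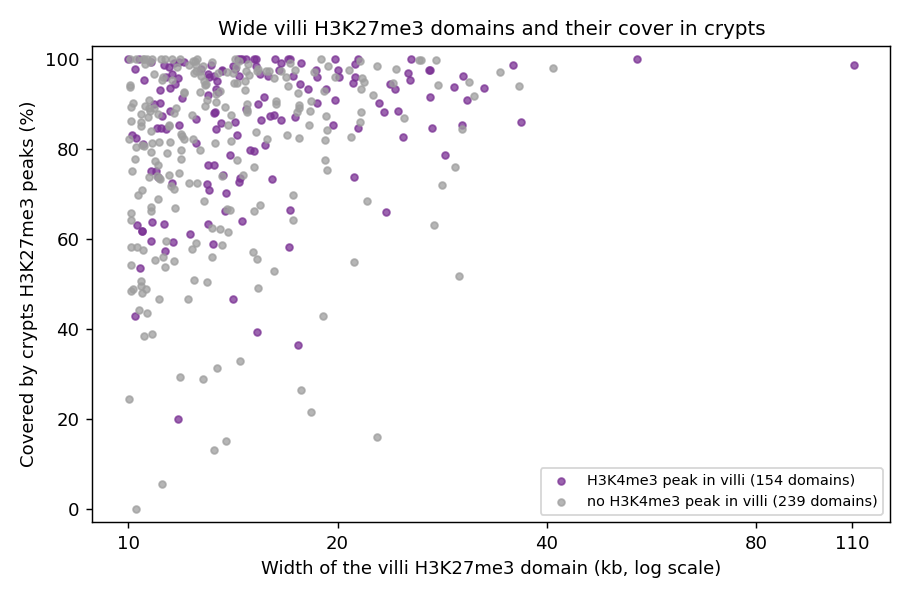
Each point is 1 of the 393 domains, with its width in villi (kb, log scale) against the share of its length covered by crypts H3K27me3 peaks (percent). Purple marks the 154 domains that met a villi H3K4me3 peak and grey the 239 that did not, and the 10 widest all lie at 86.0% or above.

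**Figure D3:**
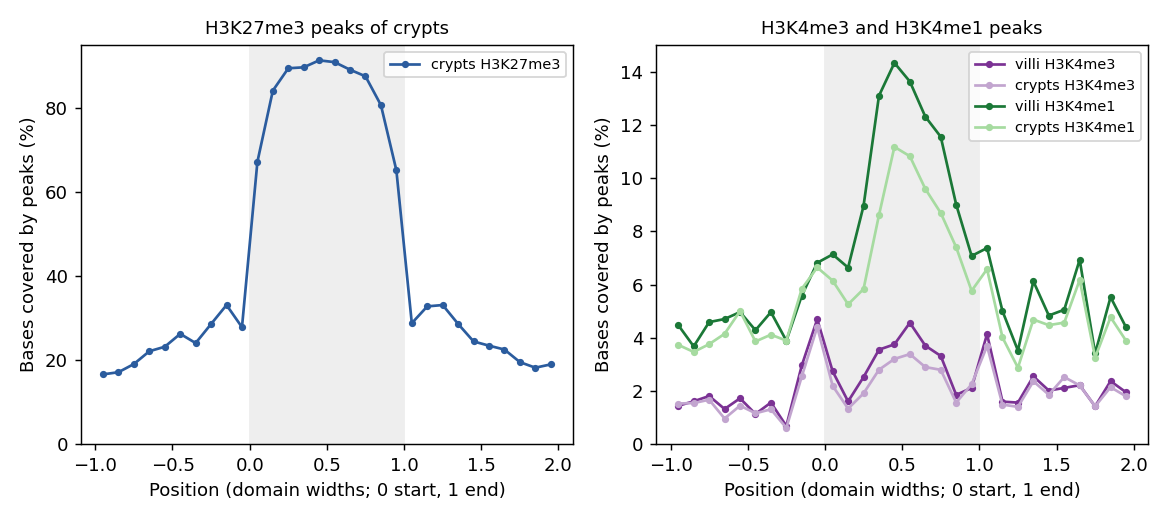
Share of bases covered by called peaks (percent) in bins across the 393 domains, with 0 at the start, 1 at the end, the domain shaded and the flanks of 1 width on each side, for crypts H3K27me3 (left) and for H3K4me3 and H3K4me1 of both compartments (right). Crypts H3K27me3 was at 91.0% in the middle bins and 74.2% in the outer ones, and villi H3K4me1 at 14 and 7.47%.

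The domains were mirrored in crypts. The crypts list held 212 H3K27me3 peaks of 10 kb or more, and these were covered by villi peaks over a median of 99.7% (99.5 to 100%) of their length. Each of the 212 was covered over at least 50% and 204 over at least 90%. A domain of villi was met by 202 of them, whereas 204 of the 393 villi domains met such a crypts peak. Where 1 villi domain and 1 crypts peak met and neither met another, the villi one was wider by a median log2 ratio of 0.14 over 146 pairs, with quartiles of 0.02 and 0.35, and 21 pairs were wider in crypts. Choosing on villi width favours villi in this ratio. When the pairs were chosen on a crypts width of 10 kb or more instead, the median was 0.04 over 99 pairs, with quartiles of 0.01 and 0.17, and 21 were wider in crypts.

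The 30 domains covered over less than 50% in crypts differed from the other 363 in what they held. A coding start site lay in 36.7% of them (21.9 to 54.5%) against 70.0% (65.1 to 74.5%). A gene of the transcription factor lists lay in 1, the Sox8 domain, which was covered over 42.9%, against 111 of 363. A CpG-island window lay in 43.3% (27.4 to 60.8%) against 84.8% (80.8 to 88.2%). Their median score was also lower, at 26.3 against 39.3, and their median width was 11810.5 against 13614 bp. The part of peak strength in their coverage was not tested.

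A single domain had no crypts H3K27me3 peak, 10258 bp on chromosome 18 from 36175168 to 36185425, inside the gene body of the neuregulin gene Nrg2. The next were an 11176 bp domain that overlaps the keratin gene Krt76 (chr15:101879664-101890839), covered over 5.56%, and one of 13281 bp that lay 3010 bp from the start of the endopeptidase gene Ecel1 (chr1:87159531-87172811), at 13.1%. A domain of 13812 bp at chr12:78090930-78104741 had 15.2% and lay 89501 bp from a start site. The widest of the 10 least covered was 22770 bp at chr6:84466945-84489714, covered over 16.0% and 97966 bp from the nearest coding start site, that of Cyp26b1, the retinoic acid hydroxylase gene, whose own domain was covered over 85.7%. Frmpd1 followed at 19.9%, then a domain 27163 bp from the start of Smug1 (chr15:103112535-103130839) at 21.5% and the 10017 bp domain on chromosome 3 at 24.4%. The domain of the keratin genes Krt82 and Krt90 had 26.4%, and a domain that overlaps the body of Cdh22 (chr2:165107784-165120582) had 28.9%. Of these 10 domains, 8 held no coding start site. In 9 of the 10 no H3K4me3 peak was called in either compartment, and Frmpd1 was the exception, with 671 bp in villi and 1078 bp in crypts.

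H3K4me3 was found in fewer than 50% of the domains and in small amounts. A villi H3K4me3 peak met 154 of the 393 domains, or 39.2% (34.5 to 44.1%), against 14.4% of all villi H3K27me3 peaks. A crypts peak met 130, or 33.1% (28.6 to 37.9%), against 14.2%. Per length the order was the other way, with 0.325 villi and 0.261 crypts H3K4me3 peaks per 10 kb of domain, against 0.483 and 0.431 in villi H3K27me3 peaks of 5 to under 10 kb and 0.581 and 0.570 over all of them. Both compartments had a peak in 120 domains, villi alone in 34, crypts alone in 10 and neither in 229. A domain with H3K4me3 carried a median of 983 bp of it in villi and 883 bp in crypts.

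The H3K4me3 peaks inside domains were narrow and low. The 198 villi peaks that met a domain were 904 bp wide in the median, whereas the villi list had 1498 bp, and their median score was 26.3 against 126. For the 160 crypts peaks the widths were 904.5 and 1584 bp and the scores 28.1 and 173. Only 10 of the 198 and 6 of the 160 ranked in the upper 50% of their lists, and with these peaks alone 2.29% of the domains met H3K4me3 in villi and 1.53% in crypts. CpG-island windows lay under 88.4% (83.2 to 92.1%) of the villi and 89.4% (83.6 to 93.2%) of the crypts peaks, and 64.6% (57.8 to 71.0%) and 64.4% (56.7 to 71.4%) were within 1 kb of a coding start site, against 72.0 and 73.4% of their lists.

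Ranked by its extent in villi, the domain with the most H3K4me3 was that of Hoxb5, Hoxb6 and Hoxb7 at chr11:96285857-96310306, 24450 bp wide, with 5519 bp in villi and 5316 bp in crypts. Scarf2, a scavenger receptor gene, had 3383 bp in villi and 2477 bp in crypts in a domain of 16555 bp. Hoxb8 and Hoxb9 had 2849 bp in villi and 4128 bp in crypts. Isl2, a homeobox gene of motor neurons, had 2831 bp in villi and 684 bp in crypts (chr9:55536321-55549726), and Slc30a3, a zinc transporter gene, 2567 and 2353 bp. The ranking on villi values favours villi in these 5, so their order between compartments is no result. The Wnt5a domain had 2424 bp in villi and 3086 bp in crypts and that of Wnt11 2409 and 2580 bp, whereas the 680 and 683 bp in the Wnt10a domain lay more than 1 kb from the start sites of Wnt10a inside it. Pdx1 had 1816 bp in villi and 1857 bp in crypts. Of the 10 widest domains, 5 had a villi H3K4me3 peak, Hoxc with 549 bp, Hoxa with 2404 bp, Tbx15 with 1542 bp, Hoxb8 with Hoxb9 and Barhl2 with 878 bp.

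H3K4me3 lay within 1 kb of a start site inside the domain in villi alone at 31 of the 306 genes, or 10.1% (7.23 to 14%). In crypts alone it lay at 6, or 1.96%. Over all coding genes 1.27% had it in villi alone and 1.06% in crypts alone. For the 2300 genes in narrower villi H3K27me3 peaks these shares were 4.43 and 3.96%. The factors of blood and endothelium among the domains with H3K4me3 in villi alone are given first. Villi H3K4me3 peaks covered 482 bp of the Tal1 domain, 750 bp at Gata2, 1311 bp at Runx3, 789 bp at Sox17 and 792 bp at Gata3. None of these domains had a crypts H3K4me3 peak. The H3K4me3 of the Sox17 domain lay more than 1 kb from the start sites of Sox17. Sox18 had no H3K4me3 peak within 1 kb of its start site in either compartment. Of the 7 endothelial and blood factor genes in domains, 5 had a villi H3K4me3 peak within 1 kb of a start site inside the domain and 1 had a crypts peak, Fli1, which had both, with 1163 and 1017 bp in its domain. Of all 306 genes in domains 36.9% had such a peak in villi and 28.8% in crypts. The lymphocyte markers moved the same way, with an H3K4me3 peak at 3 of 3 promoters in villi and 0 of 3 in crypts, and the endothelial markers had none in either. The part of other cells in the scraped villi in this result was not tested. Tbx15 (1542 bp), Pax6 (775 bp), Sox2 (439 bp) and the Hoxc domain (549 bp) were also marked in villi alone. The 2 villi peaks of Tbx15 were 725 and 817 bp wide with scores of 19.0 and 20.6. The 10 domains with H3K4me3 in crypts alone, chosen after their values were seen, included those of Evx2 with Hoxd10 to Hoxd13 (493 bp), Sim1 (566 bp), Dlx4 (1075 bp) and Tbx5 (323 bp). Across all domains more bases were covered in villi than in crypts in 111 and fewer in 53. These are called peaks of 1 library each, not scaled by the spike-in, so they do not compare amounts of H3K4me3.

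**Figure D4:**
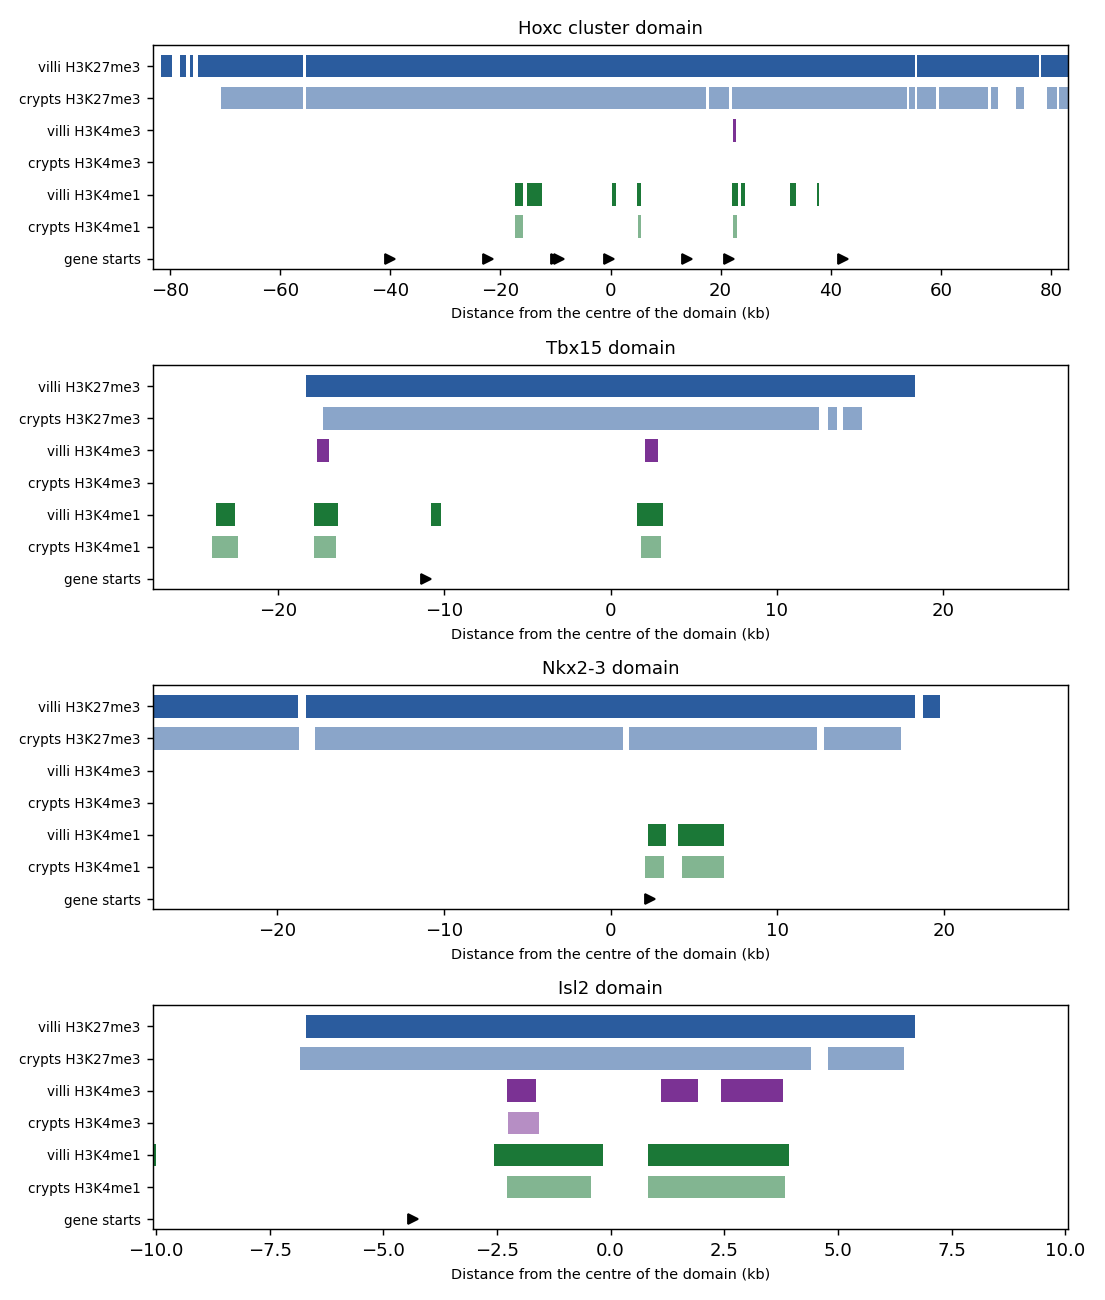
Called peaks of villi (dark) and crypts (light) for H3K27me3 (blue), H3K4me3 (purple) and H3K4me1 (green) around 4 domains, with the distance from the centre of the domain in kb and arrowheads at the 5′ end of each coding gene that starts inside, pointing in the direction of transcription. The Hoxc and Tbx15 domains have H3K4me3 in villi alone (549 and 1542 bp), Nkx2-3 has none in either, and Isl2 has 2831 bp in villi and 684 bp in crypts.

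H3K4me1 was more frequent than H3K4me3. A villi H3K4me1 peak met 296 domains, or 75.3% (70.8 to 79.3%), against 25.1% of all villi H3K27me3 peaks. A crypts peak met 258, or 65.6% (60.8 to 70.2%), against 22.8%. Per 10 kb there were 0.812 villi and 0.616 crypts peaks in domains, against 0.974 and 0.832 in villi H3K27me3 peaks of 5 to under 10 kb. H3K4me1 covered 10.4% of the bases of the domains in villi and 7.93% in crypts, whereas H3K4me3 covered 2.97 and 2.44%. Both compartments had H3K4me1 in 249 domains, villi alone in 47, crypts alone in 9 and neither in 88. Its score inside domains was close to that of its list, with a median of 18.4 against 17.7 in villi and 17.7 against 19.7 in crypts. With the upper 50% of each list by score alone, 50.4% of the domains met a villi and 34.1% a crypts H3K4me1 peak. Peaks within 1 kb of a coding start made up 52.3% (47.9 to 56.7%) of the 497 villi H3K4me1 peaks that met a domain, against 28.4% of the villi list. The profile was highest in the middle of the domains, at 14% of the bases in villi and 11% in crypts, against 7.47 and 6.14% in the outer bins.

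H3K4me3 inside a domain nearly always came with H3K4me1. In villi 153 domains had both, 143 had H3K4me1 alone and 1 had H3K4me3 alone, that of Fli1. In crypts these numbers were 127, 131 and 3. Ranked again by villi, the most H3K4me1 was found at Hoxc, with 8867 bp in villi and 2747 bp in crypts. Next came Sp9, a zinc finger factor gene of forebrain and limb, with 8668 and 7128 bp, Pax6 with 8084 and 6799 bp, Hoxa with 7702 and 7005 bp and Cyp26b1 with 6615 and 6568 bp. Nkx2-3 had 3807 bp in villi and 3647 bp in crypts with no H3K4me3 in either, and at Dlx5 and Dlx6 there were 3267 bp in villi and none in crypts. The domain over the body of Hand2 had 1974 bp in villi and none in crypts. More bases were covered in villi in 233 domains and in crypts in 72. As for H3K4me3, this counts bases under called peaks not scaled by the spike-in, in domains chosen on a villi list. From its normalized signal the paper reports a drastic decrease in villi of marks close to the N-terminus of H3, at their deposition sites. No H3K4me1 or H3K4me3 peak of either compartment lay in 87 domains, or 22.1% (18.3 to 26.5%).

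At the promoters themselves the same order was seen. Within 1 kb of a start site inside a domain, 113 of the 306 genes had a villi H3K4me3 peak, or 36.9% (31.7 to 42.5%), against 57.9% of all coding genes. In crypts 88 had one, or 28.8% (24.0 to 34.1%), against 57.7%. The 2300 genes in narrower villi H3K27me3 peaks had 37.5% (35.6 to 39.5%) and 37.0% (35.1 to 39.0%), so the share in villi was close to that of the domains and the share in crypts was above it. Both compartments had H3K4me3 at 82 of the 306 genes (26.8%), villi alone at 31 (10.1%) and crypts alone at 6 (1.96%). Over all coding genes these shares were 56.6, 1.27 and 1.06%, and over the genes in narrower villi H3K27me3 peaks 33.1, 4.43 and 3.96%. H3K4me1 was at 215 genes in villi, or 70.3% (64.9 to 75.1%), against 56.1% of all genes, and at 170 in crypts, or 55.6% (49.95 to 61.0%), against 57.8%. Of the 30 Hox genes in domains 8 had a villi and 7 a crypts H3K4me3 peak. The 8 of villi were Hoxa3, Hoxa5, Hoxa7, Hoxb6, Hoxb7, Hoxb9, Hoxd1 and Hoxd3, and none of the Hoxc genes had one. Those of crypts lacked Hoxa3 and Hoxd1 and held Hoxb8. Among the 70 other homeobox and paired-box genes 27 had one in villi and 20 in crypts. With H3K4me1 but no H3K4me3 in villi there were 105 of the 306 genes, or 34.3% (29.2 to 39.8%). This share was 22.9% (21.2 to 24.7%) for the genes in narrower villi H3K27me3 peaks and 6.06% over all coding genes.

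**Figure D5:**
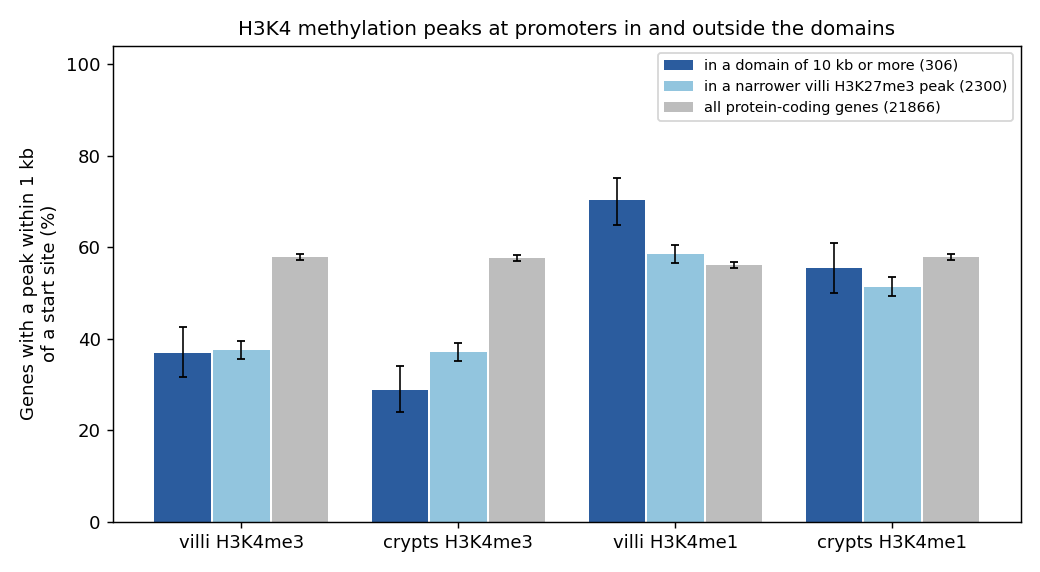
Share of coding genes (percent, bars from 0, with 95% Wilson intervals) that have an H3K4me3 or H3K4me1 peak within 1 kb of a start site, for 306 genes in domains, 2300 in narrower villi H3K27me3 peaks and all 21866, where genes of the first 2 sets are judged at their start sites inside the peak. Villi H3K4me3 stands at 36.9, 37.5 and 57.9%, and villi H3K4me1 at 70.3, 58.6 and 56.1%.

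Few H3K9me3 peaks were called in the domains, and the H3K9me2 lists, with 9 regions in all, none of them in a domain, are too short to describe that mark here. H3K9me3 peaks met 5 domains in villi, or 1.27% (0.545 to 2.94%), against 0.457% of all villi H3K27me3 peaks, and 3 in crypts, or 0.763% (0.260 to 2.22%), against 0.471%. Per length the domains had less, with 0.00817 villi and 0.00490 crypts H3K9me3 peaks per 10 kb against 0.0180 and 0.0183 over all villi H3K27me3 peaks. No start site of the 306 genes had an H3K9me3 peak within 1 kb, and over all coding genes 0.311% had one in villi and 0.380% in crypts, so that a count near 0 is what the background gives. The domains with H3K9me3 were singled out after their values were seen. The domain of the lipoprotein receptor gene Scarb1 (chr5:125291804-125321270, 29467 bp) had 1325 bp of H3K9me3 in villi and 955 bp in crypts, and that at chr15:78348950-78365821, 22894 bp from the start of Csf2rb, had 1027 and 961 bp. In villi alone it was found at Tox2 (949 bp), Olig2 (829 bp) and Gsx1 (762 bp), and in crypts alone in a domain 31819 bp from the start of Ank2 (1265 bp).

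The domains were rich in CpG islands, which the width rule did not use. A window of 500 bp with at least 55% GC and a CpG content of at least 0.65 of that given by its base composition lay in 321 domains, or 81.7% (77.6 to 85.2%), against 21.3% of all villi H3K27me3 peaks and 60.4% (57.6 to 63.1%) of those of 5 to under 10 kb. Such windows made up 14.5% of the bases in domains, 13.3% in the peaks of 5 to under 10 kb and 10.7% over all villi H3K27me3 peaks. Per base the difference was thus smaller. Windows were sought inside peaks only, so a peak under 500 bp could hold none and islands cut by a peak edge could be missed. Both lower the values of narrow peaks. The median CpG content over the whole domain was 0.358 of that given by base composition, against 0.327 and 0.258, while GC was alike at 49.8, 50.5 and 49.5%. The Hoxc and Hoxa domains each held 16 separate islands after merging of windows, and the Hoxd domain 11. Of the 781 merged islands in domains, 99.6% (98.9 to 99.9%) met a crypts H3K27me3 peak. Such peaks covered 83.4% of all domain bases and an overlap of 1 bp counts, so this high share is no result about islands. A villi H3K4me3 peak met 23.2% (20.4 to 26.3%) of the islands and a crypts one 18.8% (16.2 to 21.7%). For H3K4me1 these shares were 54.7% (51.2 to 58.1%) in villi and 41.9% (38.5 to 45.4%) in crypts. The promoters printed above follow that range, with Krt90 in 1 of the least covered domains and Barhl2, without an H3K4me3 peak over it, in 1 of the widest.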

How the data were processed

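Crypts and villi of mouse small intestine gave 12 ChIP-Rx libraries, 1 per group. The authors aligned reads to mm10 and dm6 with bowtie 1.1.2, removed duplicates and called peaks with MACS2 2.1.1, and signal tracks made with deepTools 3.1 were not used here. The deposited lists give for each peak a score, read here as the authors' −log10 p-value (a q-value cannot be told apart), and gaps in the peak numbers show that the lists were reduced after numbering. Peak calls are not scaled by the spike-in.

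Overlaps of at least 1 bp were counted with Python 3.11.15 and NumPy 2.4.6, and start sites were those of protein-coding transcripts in GENCODE M21. Shares carry 95% Wilson intervals and medians exact order-statistic intervals, which cover counting error only, since neighbouring regions are not independent. The overlap code was tested on simulated data, where it found 13000 of 13000 planted overlaps, and gave no difference from bedtools 2.31.1 in 41391 comparisons. Figures were drawn with Matplotlib 3.10.9.

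The domains and gene lists were chosen with earlier results of these data known, so no list was tested. Named were the 10 widest and 10 least covered domains, the 5 with most H3K4me3, H3K4me1 or coding genes, 3 on each side of the width limit and, per list, the genes in the widest domains. Others were chosen after their values were seen. Paxx, a DNA repair gene matched by name, was taken out of the homeobox list. Alternatives covered the width limit, merging of peaks, overlap rule, list score and start sites. A withheld item is not reported here.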

Additional observations from a re-analysis of the deposited data

How the results depend on the processing

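No paired analysis was possible because there was 1 library per group and the labels give no replicate numbers. Of 48 alternatives to 9 results, 22 stayed close to the value reported and 26 moved it. Close means a share or median within its interval, or a count within 1.5 times. The results are counts, shares and a median, so none has a direction that could turn. The number of domains was 689 when villi H3K27me3 peaks under 1 kb apart were merged, 621 at 8 kb and 142 at 15 kb. The median crypts coverage was 84.4% at 8 kb, 91.7% at 15 kb, 84.8% with the upper 50% of the crypts list and 90.5% with its peaks under 1 kb apart merged. The share covered over at least 50% was 88.6% at 8 kb, 95.1% at 15 kb and 83.7% with the upper 50%. At 15 kb the shares with H3K4me3 were 47.2% in villi and 38.7% in crypts, and those with H3K4me1 were 83.8 and 74.6%. Asking for the whole peak inside the domain gave 34.4 and 28.2% for H3K4me3 and 69.2 and 59.5% for H3K4me1. With the upper 50% of each list by score they fell to 2.29 and 1.53% for H3K4me3 and to 50.4 and 34.1% for H3K4me1, so the H3K4me3 counts rest on weakly called peaks. Coding genes numbered 117 when the whole gene had to lie inside and 140 at 15 kb, and 440 at 8 kb. The share of domains with a coding start was 60.6% with the 5′-most start alone and 75.4% at 15 kb. Autosomes alone gave the same values, since no domain lay elsewhere. Depth is unknown from the lists, so a base without a peak was not shown to lack the mark, and the longer villi H3K27me3 list cannot be told apart from a deeper or more enriched library.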
